A study of Mus musculus with 14 samples.

Results

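The genes described here encode 10 proteins with which a macrophage recognizes and takes up material: the lysosomal glycoprotein gene Cd68, the scavenger receptor genes Msr1, Marco, Cd36 and Scarb1, the receptor tyrosine kinase genes Mertk and Axl, their ligand genes Gas6 and Pros1, and the engulfment receptor gene Megf10. They were given by symbol, and 10 of 10 were found among the 49315 genes of the count table. All 10 also passed the filter on low counts. Messenger RNA was sequenced from primary microglia, the macrophages of the brain parenchyma, of TIMP2 KO mice, which carry a global deletion of Timp2, and of WT mice, both labelled as the C57BL/6 strain (C57Bl/6J in the study's methods). A global deletion does not separate loss of TIMP2 in microglia from its loss elsewhere. Each of the 7 libraries per genotype came from forebrains of 5 pups of both sexes, pooled at postnatal day 6 to 7, after selection with CD11b microbeads and a short culture in serum-containing medium. Each library was an independent isolation, and the 14 libraries held between 38875344 and 48070236 counted reads.

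An apoptotic cell exposes phosphatidylserine on its surface. Gas6 and protein S (Pros1) bind this lipid and bridge it to the TAM receptors Tyro3, Axl and Mertk, whose signalling drives engulfment and dampens inflammatory responses. Gas6 is a ligand of each of these receptors, whereas protein S activates Mertk and Tyro3 but not Axl. Scavenger receptors bind oxidized lipoproteins, polyanions and bacterial surfaces directly, and CD68 lies mostly in the endosomes and lysosomes that receive the cargo. In the brain Mertk, Axl and CD36 serve microglial clearance of dying cells and debris, while Megf10 is known as an engulfment receptor of astrocytes.

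The label check came first. Timp2 was at 119.6 to 129 CPM, the count relative to the library total scaled with TMM factors, in KO and at 398 to 495 CPM in WT, and the ranges did not overlap. KO libraries averaged 122 ± 3.14 CPM (SD, n = 7) and WT libraries 464 ± 36.8 CPM (SD, n = 7). On the log2 scale KO was at -1.92 relative to WT (edgeR, adjusted p = 1.52e-12). KO cultures thus retained 26.4% of the WT count, and a count per gene does not show which exons the remaining reads cover. Of 15 microglia and macrophage markers, 15 were detected in all libraries, with a summed level of 14242 to 17181 CPM in KO and of 13916 to 16549 CPM in WT. The homeostatic microglia marker Tmem119 reached only 1.84 to 6.27 CPM. RNA of astrocyte markers (13 genes) summed to 32.2 to 154 CPM in KO, with a median of 54.0, and to 36.8 to 288 CPM in WT, with a median of 102. In bulk samples fewer cells of a type and less RNA per cell cannot be told apart.

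Levels of different genes were compared per length, as RPKM, the CPM divided by the exon length in kilobases. Cd68 was the member with the highest level, with a mean of 1206 ± 61.2 RPKM (SD, n = 14), rank 22 of the 15666 tested genes with a known length. Gas6 followed with 561 ± 63.7 RPKM and rank 47, and Cd36 with 254 ± 42.8 RPKM and rank 127. Msr1 (104 ± 13.3 RPKM) and Pros1 (95.3 ± 5.09 RPKM) came next, and their ranges over libraries overlapped, 81.9 to 130 RPKM and 84.8 to 103 RPKM. Mertk (55.9 ± 5.19 RPKM) and Axl (46.1 ± 6.69 RPKM) were neighbours whose ranges also overlapped. Scarb1 was at 17.8 ± 2.12 RPKM. Marco (0.734 ± 0.365 RPKM, rank 11344) and Megf10 (0.159 ± 0.102 RPKM, rank 14222) lay far below the others. Tyro3, the remaining TAM receptor, was at 0.311 ± 0.0987 RPKM, and Mfge8, which bridges phosphatidylserine to integrins, at 15.4 ± 3.98 RPKM. Cultured microglia of both genotypes therefore held abundant Gas6, Pros1, Mertk and Axl messenger RNA and little of Tyro3.

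**Figure D1:**
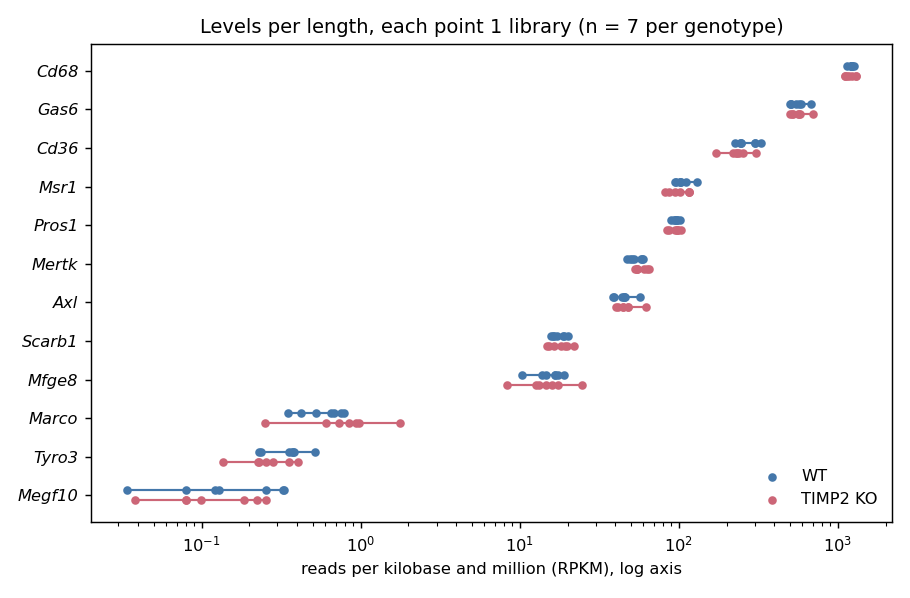
Level of each of the 10 members and of Tyro3 and Mfge8 in RPKM (log axis), with 1 point per library and a line from the lowest to the highest library of each genotype. The order from Cd68 at the top to Megf10 at the bottom spans means of 1206 to 0.159 RPKM, and WT and KO points overlap for each gene.

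Cd68 and Marco stand near the opposite ends of this order although both are known as macrophage genes, so their promoters are shown. RefSeq promoter windows on GRCm38.p6, from 250 bases before to 50 after a start site, were at hand for 7 members (Cd68, Cd36, Marco, Mertk, Axl, Gas6 and Pros1), and not for Msr1, Scarb1 and Megf10. The Cd68 window is chr11:69666121-69666420 and the Marco window chr1:120504975-120505274, both on the minus strand and printed 5′ to 3′. Capitals mark GAGGAA, letters of the box bound by the macrophage lineage factor PU.1, and TGANTCA, letters of the AP-1 site, on either strand.
Cd68: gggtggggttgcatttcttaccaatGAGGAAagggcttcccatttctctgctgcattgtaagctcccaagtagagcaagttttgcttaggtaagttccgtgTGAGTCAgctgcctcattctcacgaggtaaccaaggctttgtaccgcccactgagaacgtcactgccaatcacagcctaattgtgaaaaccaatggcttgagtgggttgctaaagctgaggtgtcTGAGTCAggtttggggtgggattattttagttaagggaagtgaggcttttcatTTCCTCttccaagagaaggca
Marco: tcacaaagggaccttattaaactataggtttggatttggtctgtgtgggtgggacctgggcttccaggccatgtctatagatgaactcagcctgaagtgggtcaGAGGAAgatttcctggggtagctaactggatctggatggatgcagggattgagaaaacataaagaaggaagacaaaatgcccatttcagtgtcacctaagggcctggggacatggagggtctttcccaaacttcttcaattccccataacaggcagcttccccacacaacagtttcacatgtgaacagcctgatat
The Cd68 window held 2 matches to GAGGAA and 2 to TGANTCA, and the Marco window held 1 match to GAGGAA. The letters GAGGAA were found in 28.3% of the 32851 windows of the table and TGANTCA in 7.81%, so GAGGAA is common in windows of this length. Among the other members with a window, Axl held 1 match to GAGGAA. The cAMP response element (TGACGTCA, 1.79% of all windows) and the E-box (CACGTG, 7.15%) had 0 matches in these 7 windows. The Cd36 window belongs to a start 52905 bp from the outermost annotated start of the gene, and the other windows lie within 45 bp of theirs. The 2 kinds of match in Cd68 did not overlap each other. A match is a run of letters and not an occupied site.

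The comparison of KO with WT microglia asks whether loss of TIMP2 changes the messenger RNA of these receptors and ligands. No member passed the test. With edgeR's quasi-likelihood test, adjusted over the 15700 genes tested, 0 of 10 members had an adjusted p under 0.05, against 0.0191% of all tested genes (3 genes, all lower in KO: Timp2, Engase and Gm11748). At an unadjusted p under 0.05 the count of members was also 0, against 3.36% of all tested genes. DESeq2 called 0 members, against 0.0955% of all tested genes, and 0 members had an unadjusted p under 0.05 with it. By sign 5 members were higher and 5 lower in KO, and their adjusted p ranged from 0.944 to 0.984. What the data do give is an interval for each member, which is narrow for the abundant genes and wide for Marco and Megf10.

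**Figure D2:**
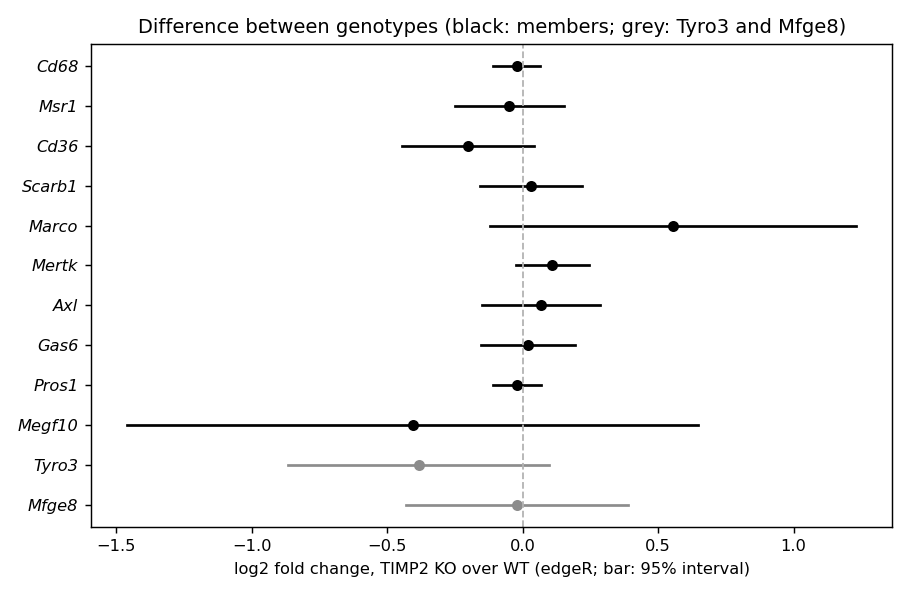
Log2 fold change of each member (black) and of Tyro3 and Mfge8 (grey), KO over WT, from edgeR with 7 libraries per genotype, with bars for the 95% interval. Each interval includes 0, and those of Marco (-0.12 to 1.23) and Megf10 (-1.46 to 0.65) are the widest.

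Cd68 (chr11:69664213-69666153, minus strand, GRCm38), a glycoprotein of late endosomes and lysosomes used as a marker of phagocytic microglia, lies on the chromosome of Timp2 but 48.6 Mb away from it. Its level in KO ran from 1398 to 1639 CPM with a median of 1474, and in WT from 1438 to 1590 CPM with a median of 1535. The KO range enclosed the WT range, with 2 KO libraries above and 3 below it. The log2 fold change was -0.02 (SE 0.041, 95% interval -0.11 to 0.06, edgeR adjusted p = 0.962), so the interval covers a KO level of 0.927 to 1.05 times the WT level. Cd68 was the member with the smallest relative spread, 5.08% of its mean over 14 libraries. The genes that moved most like it over the 14 libraries were Rabac1 (r = 0.97), the lysosomal protease gene Ctsb (r = 0.96) and Dhrs3 (r = 0.96), where r is Pearson's correlation of log2 CPM after subtraction of each genotype's mean and is given as a description.

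Msr1 and Marco encode class A scavenger receptors, trimers with a collagen-like stalk that bind modified lipoproteins and bacteria. Msr1 (chr8:39581685-39642673) ran from 520 to 742 CPM in KO with a median of 648, and from 600.2 to 827 CPM in WT with a median of 650.2. The ranges overlapped widely, and 3 KO libraries lay below the WT range. Its log2 fold change was -0.05 (SE 0.094, 95% interval -0.25 to 0.15, edgeR adjusted p = 0.965). Without the WT library with the highest Msr1 level, replicate 5, the value was 0.01. Most like Msr1 over libraries were Rnf145 (r = 0.94), Ap1s2 (r = 0.94) and Rhobtb1 (r = 0.94).

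Marco (chr1:120474538-120505024) was near the limit of detection, with 19 to 144 reads per library. It ran from 0.485 to 3.40 CPM in KO with a median of 1.64, and from 0.673 to 1.5 CPM in WT with a median of 1.25. Of the 7 KO libraries, 4 lay above the WT range and 1 below it. KO libraries averaged 1.68 ± 0.893 CPM (SD, n = 7) and WT libraries 1.14 ± 0.319 CPM (SD, n = 7). The resulting log2 fold change of 0.56 (SE 0.316, 95% interval -0.12 to 1.23, edgeR adjusted p = 0.944) was the largest of the members and did not pass. The size of this value moved with single libraries, while its sign held in the 14 fits that left out 1 library. Without KO replicate 3, the library with the highest level, it was 0.29 (edgeR adjusted p = 0.9999), and without KO replicate 1, the one with the lowest, it was 0.71 (adjusted p = 0.716). KO replicate 3 also had the highest summed level of the 9 monocyte and granulocyte markers, 22.3 CPM against 2.64 to 16.1 CPM in the other libraries, and the lowest Cd36 level. Over all libraries the sum was 4.44 to 22.3 CPM in KO and 2.64 to 14.9 CPM in WT. The neutrophil genes S100a9 and S100a8 reached 10.8 and 5.46 CPM, the monocyte receptor gene Ccr2 was at 2.23 to 3.57 CPM, and Ly6g and Mpo were at 0 to 0.0461 CPM. Of these markers 4 were tested, and 4 of 4 were higher in KO by sign (median 0.93 on the log2 scale, 0 called). The part of such cells in the Marco level was not tested. Most like Marco were Igfbp6 (r = 0.91), the complement gene C3 (r = 0.91) and the NF-κB subunit gene Nfkb2 (r = 0.91). KO replicates 1 and 3 had the largest Marco deviations from the genotype mean, -1.56 and 1.19 on the log2 scale. These r values were not computed without them.

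Cd36 and Scarb1 encode class B scavenger receptors with a large extracellular loop between a pair of membrane spans. CD36 takes up fatty acids and oxidized lipoproteins and helps in binding apoptotic cells, and SR-BI, the product of Scarb1, is the receptor of high-density lipoprotein. Cd36 (chr5:17781690-17888801) ran from 612 to 1097 CPM in KO with a median of 841, and from 814 to 1188 CPM in WT with a median of 886. Only 2 KO libraries lay below the WT range, and 2 of 7 lay above the WT median. On average Cd36 was at 847 ± 145 CPM (SD, n = 7) in KO cultures, which is 86.9% of the 975 ± 144 CPM (SD, n = 7) in WT cultures. The log2 fold change of -0.20 (SE 0.114, 95% interval -0.45 to 0.04, edgeR adjusted p = 0.944) did not pass, and the interval covers a KO level of 0.734 to 1.03 times the WT level. With 1 library left out it lay between -0.28 (without KO replicate 1, edgeR adjusted p = 0.716) and -0.14 (without KO replicate 3). Most like Cd36 were Ergic1 (r = 0.93), Kitl (r = 0.89) and Gpr176 (r = 0.88).

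Scarb1 (chr5:125277087-125341094) ran from 127 to 187 CPM in KO with a median of 155, and from 133 to 171 CPM in WT with a median of 145. The KO range enclosed the WT range. Scarb1 had a log2 fold change of 0.03 (SE 0.087, 95% interval -0.16 to 0.22, edgeR adjusted p = 0.974), and its sign turned when KO replicate 5 was left out (-0.02). Most like Scarb1 were Dpy19l1 (r = 0.97), Cryl1 (r = 0.96) and the receptor gene Nrp1 (r = 0.95).

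**Figure D3:**
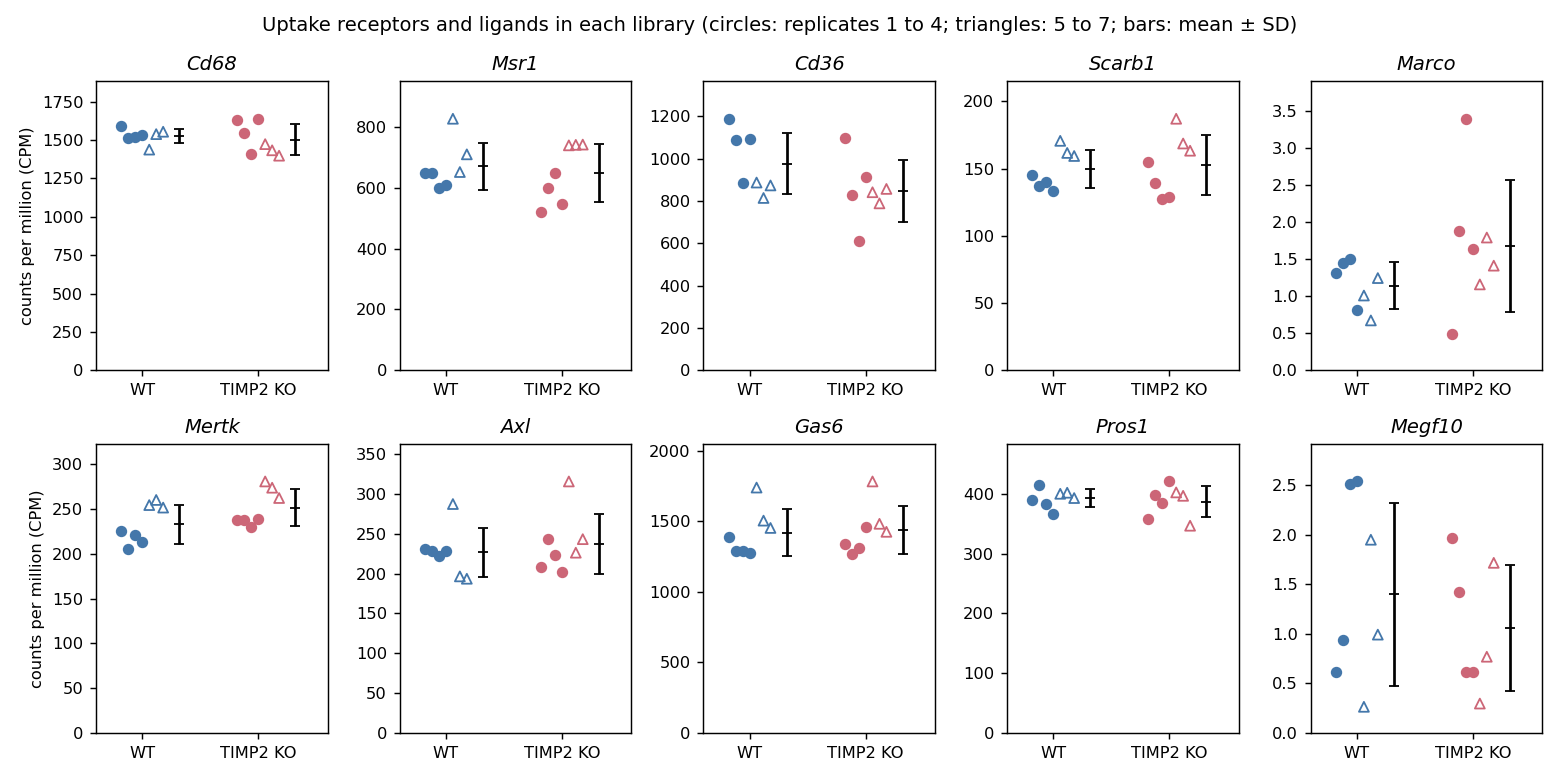
CPM of each member in each WT (blue) and TIMP2 KO (red) library, with axes from 0, circles for the libraries numbered 1 to 4, triangles for those numbered 5 to 7, and bars for mean ± SD (n = 7). Mertk and Scarb1 triangles lie above the circles in both genotypes, and Axl has 1 high triangle in each.

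The TAM receptors were present through Mertk and Axl. Mertk (chr2:128698956-128802894), the receptor with which macrophages engulf apoptotic cells, ran from 229 to 281 CPM in KO with a median of 239, and from 206 to 260.1 CPM in WT with a median of 226. The ranges overlapped, although 7 of 7 KO libraries lay above the WT median and 3 lay above the WT range. On average Mertk was at 251 ± 20.4 CPM (SD, n = 7) in KO and at 233 ± 21.9 CPM (SD, n = 7) in WT cultures. Its log2 fold change of 0.11 (SE 0.063, 95% interval -0.02 to 0.24, edgeR adjusted p = 0.944) did not pass, and the interval covers a KO level of 0.983 to 1.18 times the WT level. Most like Mertk were Dock6 (r = 0.96), Cd180 (r = 0.94) and Pkib (r = 0.94).

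Within each genotype, Mertk fell into 2 separate ranges that followed the replicate numbers. In KO the libraries numbered 1 to 4 were at 229 to 239 CPM and those numbered 5 to 7 at 262 to 281 CPM. In WT the same numbers gave 206 to 226 CPM and 252 to 260.1 CPM. Within either set of numbers the KO values thus lay above the WT values, which the fit without the numbers does not use. Scarb1 had the same split, with 127 to 155 CPM against 163 to 187 CPM in KO and 133 to 145 CPM against 159 to 171 CPM in WT. Msr1 followed it in KO, 520 to 648 CPM against 739 to 742 CPM, and by a narrow margin in WT, 600.2 to 650.2 CPM against 652 to 827 CPM. The other members did not split this way in both genotypes. The labels name no batch for these numbers, the split was noticed after the values were seen, and it has no test. How many of all tested genes split this way was not counted. The split is therefore not shown to be particular to these members. The genes given as most like Mertk, Scarb1 and Msr1 were found over libraries of both ranges.

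Axl (chr7:25757273-25788705), the TAM receptor that macrophages raise under inflammatory stimuli, ran from 202 to 316 CPM in KO with a median of 226, and from 193 to 287 CPM in WT with a median of 228. The highest library was replicate 5 in both genotypes, and without these 2 the levels were 202 to 243 CPM in KO and 193 to 231 CPM in WT. The log2 fold change was 0.07 (SE 0.101, 95% interval -0.15 to 0.28, edgeR adjusted p = 0.953). It was -0.01 without KO replicate 5 and 0.13 without WT replicate 5. Most like Axl were the lysosomal phospholipase gene Pla2g15 (r = 0.93), Nono (r = 0.91) and Ahsa1 (r = 0.89). The 2 replicate 5 libraries had the largest Axl deviations from the genotype mean, 0.42 in KO and 0.35 in WT on the log2 scale. These r values were not computed without them. Tyro3 had 34 to 133 reads per library, with 0.839 to 2.5 CPM in KO and 1.43 to 3.19 CPM in WT. Its log2 fold change was -0.38 (SE 0.226, 95% interval -0.87 to 0.10, edgeR adjusted p = 0.944).

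Of the ligands, Gas6 (chr8:13465374-13494490) ran from 1271 to 1782 CPM in KO with a median of 1425, and from 1272 to 1738 CPM in WT with a median of 1385. The ranges nearly coincided, and replicate 5 was again the highest library in both genotypes. The log2 fold change was 0.02 (SE 0.082, 95% interval -0.16 to 0.19, edgeR adjusted p = 0.984), and its sign turned in 4 of the 14 fits that left out 1 library. The exons of Gas6 share 34 bp with those of Tmem255b on the opposite strand, and whether the counting used strand is not given in the sources used here. Most like Gas6 were Slc25a38 (r = 0.97), Pelp1 (r = 0.97) and Vps33a (r = 0.95), whose product acts in fusion with lysosomes. Pros1 (chr16:62854307-62929346) ran from 347 to 421 CPM in KO with a median of 397, and from 366 to 414 CPM in WT with a median of 393. The KO range enclosed the WT range. Pros1 had a log2 fold change of -0.02 (SE 0.042, 95% interval -0.11 to 0.07, edgeR adjusted p = 0.967), and the interval covers a KO level of 0.926 to 1.05 times the WT level. Most like Pros1 were Maf1 (r = 0.89), 1810034E14Rik (r = 0.87) and Zfp787 (r = 0.85).

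Ratios within a library do not depend on the scaling between libraries. Per length, Axl was at 0.808 times the Mertk level in KO and 0.835 times in WT (geometric means), and the log2 ratio was -0.31 ± 0.16 (SD, n = 7) against -0.26 ± 0.24 (SD, n = 7), which did not differ beyond the spread (exact permutation over 3432 splits, two-sided, p = 0.672). The log2 ratio was below 0 in 14 of 14 libraries, so Mertk exceeded Axl per length in each culture. This order rests on the merged exon lengths used, 4336 bp for Mertk and 5033 bp for Axl. In CPM, Axl was above Mertk in some libraries (287 against 254 in WT replicate 5) and below it in others (196 against 260 in WT replicate 6). Pros1 was at 0.168 times the Gas6 level in KO and 0.173 times in WT, with log2 ratios of -2.57 ± 0.16 (SD, n = 7) and -2.53 ± 0.15 (SD, n = 7) (exact permutation p = 0.617). Scarb1 was at 0.0764 times the Cd36 level in KO and 0.0651 times in WT, with log2 ratios of -3.71 ± 0.28 (SD, n = 7) and -3.94 ± 0.32 (SD, n = 7). That difference of 0.23 on the log2 scale did not pass (exact permutation p = 0.172). Adjusted over the 3 ratios, the permutation p was 0.672, 0.672 and 0.516. The Scarb1 to Cd36 ratio was higher in KO in 7 of 7 same-numbered cases (exact sign flip p = 0.0156, the smallest that 7 pairs can give, not adjusted). Whether these numbers pair the libraries is not known.

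Megf10 (chr18:57133090-57297467) had 12 to 122 reads per library. It ran from 0.296 to 1.97 CPM in KO with a median of 0.769, and from 0.264 to 2.54 CPM in WT with a median of 0.992. The KO range lay inside the WT range. Megf10 had a log2 fold change of -0.41 (SE 0.493, 95% interval -1.46 to 0.65, edgeR adjusted p = 0.946), and the interval covers a KO level of 0.364 to 1.57 times the WT level. Megf10 varied by 63.8% of its mean over 14 libraries, the widest relative spread of the 10 members. Most like it were Kank1, Mfsd2a and the astrocyte gap junction gene Gja1, all with r = 0.99.

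Megf10 followed the summed astrocyte marker RNA of the library. Over 14 libraries, with each genotype's mean subtracted on the log2 scale, Pearson's r was 0.97 (permutation p = 1e-05, the smallest that 100000 permutations can give, adjusted over the 10 members p = 0.0001) and Spearman's rank correlation 0.94 (permutation p = 3e-05, adjusted p = 0.0003). Without the 2 libraries farthest from the median marker sum, WT replicate 4 and KO replicate 5, r was again 0.97. Within KO r was 0.96 and within WT 0.97. Of the 13 markers, 11 were tested, and all 11 were lower in KO by sign with a median log2 fold change of -0.69, against a median of 0.00 over all tested genes and 0 called by edgeR (1 lower at an unadjusted p under 0.05, the glial calcium-binding protein gene S100b). Other markers shifted by sign too, with 0 called: 11 of 13 neuronal, 8 of 10 oligodendrocyte lineage and 5 of 5 fibroblast markers were lower in KO, with medians of -0.30, -0.36 and -0.30, and 14 of 15 microglia and macrophage markers were higher, with a median of 0.04. Of the border macrophage markers 7 of 8 were higher, with a median of 0.13, and of the monocyte and granulocyte markers 4 of 4, with a median of 0.93. The 10 tested endothelium and mural cell markers went both ways, with 4 higher and 6 lower and a median of -0.07. With the marker sum as a covariate the Megf10 log2 fold change was 0.33 in place of -0.41, and without the 2 libraries with the highest sums, WT replicates 3 and 4, it was 0.16. The sign of the Megf10 difference thus turned in both fits, and neither value passed the test.

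**Figure D4:**
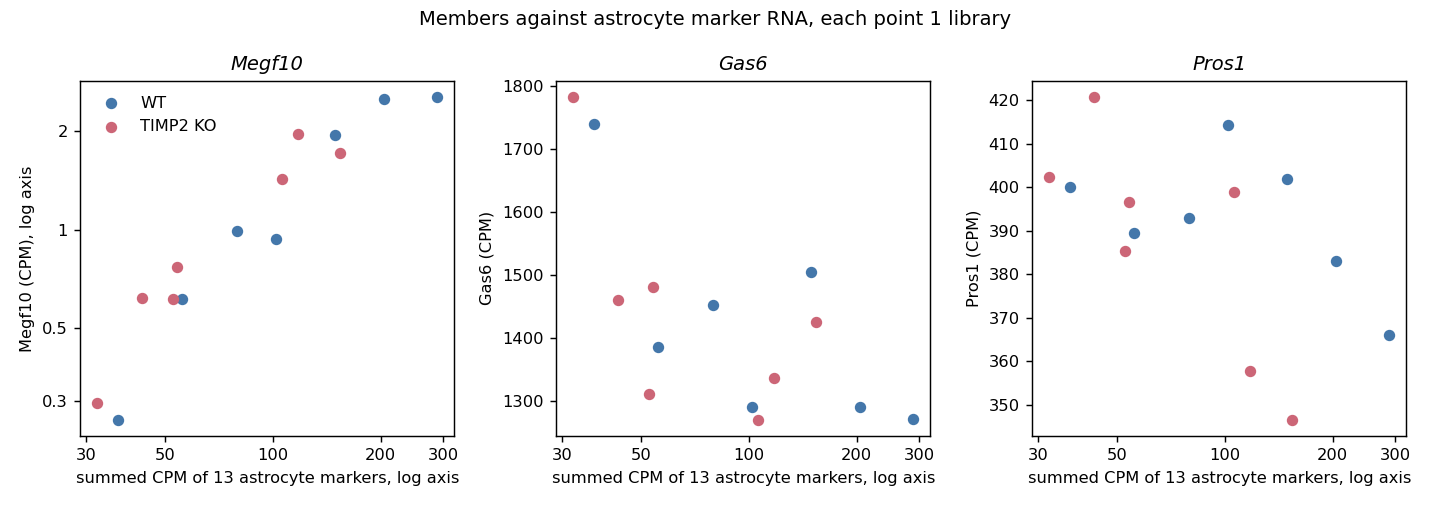
CPM of Megf10 (log axis), Gas6 and Pros1 against the summed CPM of 13 astrocyte markers (log axis), with 1 point per library in WT (blue) and TIMP2 KO (red). Megf10 rises from 0.264 to 2.54 CPM over marker sums of 32.2 to 288 CPM, while the 2 highest Gas6 points lie at the 2 lowest sums.

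Gas6 and Pros1 went the other way. Gas6 had r = -0.68 with the marker sum (permutation p = 0.00936, adjusted p = 0.0337) and a Spearman rank correlation of -0.65 (permutation p = 0.0191, adjusted p = 0.0955). Pros1 had r = -0.65 (permutation p = 0.0101, adjusted p = 0.0337) and a Spearman rank correlation of -0.54 (permutation p = 0.0471, adjusted p = 0.157). Without the 2 libraries farthest from the median sum, r was -0.55 for Gas6 and -0.53 for Pros1, and neither passed (adjusted p = 0.305 for both), so these relations rest in part on those libraries. Gas6 also differed by replicate number in WT, with 1272 to 1385 CPM in the libraries numbered 1 to 4 and 1452 to 1738 CPM in those numbered 5 to 7, while in KO these ranges overlapped (1271 to 1459.6 CPM and 1425 to 1782 CPM). The relation of Gas6 with the marker sum was not tested within these sets. For Cd68, Cd36, Marco and Axl, r lay between -0.38 and 0.16 with adjusted p of 0.373 or more. For Mertk, Scarb1 and Msr1, whose levels fell in 2 ranges by replicate number, a value over all 14 libraries is not read as a relation.

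The other genes of the uptake pathway were read from 6 lists. Of the 118 genes of these lists that were tested, 0 were called by edgeR. At an unadjusted p under 0.05, 5 were higher and 0 lower, against 3.36% of all tested genes (269 higher and 258 lower of 15700). Their median log2 fold change was 0.00, as over all tested genes. Among other receptors and bridging proteins for apoptotic cells, 10 of 24 tested genes were higher and 14 lower by sign, and the smallest p values belonged to Tyro3 and to Adgrb1, a phosphatidylserine receptor gene (log2 fold change -0.56). Among other scavenger receptors, 8 of 14 were higher by sign. The smallest p values there were those of Colec12 and of the β-glucan receptor gene Clec7a (log2 fold change 0.17). Colec12 was at 232 CPM in KO and 189 CPM in WT (log2 fold change 0.29, edgeR adjusted p = 0.944). The engulfment signalling list had 14 of 24 genes higher by sign, and its smallest p values were those of the focal adhesion kinase gene Ptk2 (-0.18) and of Vav3 (-0.13).

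In the phagosome maturation list 11 of 23 genes were higher by sign. Mon1a, which helps to activate Rab7, had a log2 fold change of 0.15 and the LC3 conjugation gene Atg7 one of 0.04. Among genes of lipid handling and nuclear receptors, 13 of 22 were higher by sign, and the receptor genes Rxra (0.11) and Ppard (0.13) had the smallest p. Among genes of shedding and negative regulation of TAM receptors, 8 of 11 were higher by sign. Rhbdf2, a partner of the sheddase ADAM17 (0.09), and the interferon receptor gene Ifnar2 (0.09) had the smallest p. Each gene named from these lists had an edgeR adjusted p of 0.944. The 5 genes at an unadjusted p under 0.05 were Colec12, Mon1a, Rxra, Ppard and Rhbdf2.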

How the data were processed

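Each deposited value is a raw count of reads per Ensembl gene, not normalized by the authors. Per the methods and the submitters' processing notes, RNA came from pelleted cultures, libraries were made with poly(A) selection and sequenced as paired 150 bp reads, and reads were mapped to GRCm38 with tools that include Trimmomatic 0.36, STAR 2.5.2b and featureCounts of Subread 1.5.2. The study modelled batch, which the labels do not give. Genotype and replicate number were taken from the sample labels, and count columns were matched by library name. Symbols, positions and exon lengths came from GENCODE M21 (49056 of 49315 genes matched).

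Genes with low counts were removed by filterByExpr (at least 10 reads, 15 in total), and counts were scaled with TMM and tested with edgeR 4.0.16 (quasi-likelihood, robust, two-sided, Benjamini-Hochberg over all tested genes, threshold 0.05) in R 4.3.3. Log2 CPM had a prior count of 1. DESeq2 1.42.0 was an alternative, as were upper-quartile scaling, no filter, a replicate block, an astrocyte covariate and leaving out each library. The code was tested on simulated counts. There 8.12% of edgeR calls, 4.79% of calls with the replicate block in edgeR and 20.2% of DESeq2 calls were false. The members and lists were chosen with earlier results of these data known. The genes named were Timp2, the members, Tyro3, Mfge8, called genes and the 3 genes most like each member. From each of the 6 other lists the 2 tested genes with the smallest p were named. Some cell type markers were also named, mostly for their levels, and Tmem255b for the exon bases it shares with Gas6. No pair of libraries had counts equal within sampling noise (lowest chi-square per degree of freedom 6.36).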

Additional observations from a re-analysis of the deposited data

Results flagged for a closer look

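In 3 of the 26 sets of 7 values tested (members and ratios, in each genotype), 1 library stood apart from the others by Dixon's gap test, which chance flags in about 1 of 20 sets. Axl in KO replicate 5 was at 316 CPM, and the next library was at 243 CPM. Axl in WT replicate 5 was at 287 CPM, and the next library was at 231 CPM. Gas6 in KO replicate 5 was at 1782 CPM, and the next library was at 1482 CPM. These 2 libraries also had the lowest astrocyte marker sums, 32.2 CPM in KO replicate 5 and 36.8 CPM in WT replicate 5. Over 14 libraries the Pearson correlation with that sum was -0.68 for Gas6 (permutation, adjusted p = 0.0337, and -0.55 with adjusted p = 0.305 without KO replicate 5 and WT replicate 4) and -0.38 for Axl (permutation, adjusted p = 0.373).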

How the results depend on the processing

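No member was called in any of the 21 alternative fits. The count of genes called was 3 with edgeR, 3 to 4 when 1 library was left out, 15 with DESeq2 and 26 with DESeq2 and the replicate block. Genes at an unadjusted p under 0.05 numbered 527, against 1351 with no filter, 902 with the replicate block in edgeR and 384 to 987 with 1 library left out, the highest without KO replicate 1 and 965 without WT replicate 5. Members at an unadjusted p under 0.05 numbered 0, against 2 with the replicate block in edgeR and 2 in DESeq2, and 0 to 2 with 1 library left out (Cd36 and Marco without KO replicate 1, Mertk without WT replicate 6). The causes were not tested.

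Whether the replicate numbers pair the libraries is not known. The labels tie no batch or day to them, correlations of same-numbered deviations over all genes ran from -0.196 to 0.743, and 3 of 14 libraries were most like the one with their own number. With the replicate block, the Mertk value was 0.11 on the log2 scale (adjusted p = 0.573 in edgeR and 0.0742 in DESeq2) and the Cd36 value was -0.21 (adjusted p = 0.801 in edgeR and 0.184 in DESeq2). In 7 of 7 same-numbered cases Mertk was higher and Cd36 lower in KO, while each other member went both ways. The share of all tested genes with 1 direction in 7 of 7 cases was not counted. The Scarb1 to Cd36 ratio, with 0.23 on the log2 scale, had an exact sign flip p of 0.0156 under this pairing. That is the smallest p that 7 pairs can give. The block in edgeR called no gene of the 6 other lists, and DESeq2 was not read for them.

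Of 210 alternative values of the members' log2 fold changes, 14 turned in sign, in 6 members. With the astrocyte covariate Scarb1 was at -0.0046, Gas6 at -0.052 and Megf10 at 0.33. Without WT replicates 3 and 4, left out together after the data were seen, these were -0.020, -0.036 and 0.16. With 1 library left out, the ranges were -0.086 to 0.0077 for Msr1, -0.025 to 0.068 for Scarb1, -0.014 to 0.13 for Axl, -0.039 to 0.075 for Gas6 and -0.042 to 0.0049 for Pros1. The Pros1 to Gas6 log2 ratio difference ran from -0.087 to 0.00099, and that of Scarb1 to Cd36 from 0.17 to 0.29. Of 3 members past the test against astrocyte marker RNA, 1 remained without the 2 farthest libraries, and r of Scarb1, over both of its ranges, went from -0.31 to 0.040. A prior count of 0.5 moved no mean level beyond its spread. Marco and Megf10 had few reads, 19 to 144 and 12 to 122 per library, and the SE of Megf10 was 0.493, against 0.168 with the astrocyte covariate.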

Other observations

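Among 28 pairs of the 8 members other than Mertk and Scarb1, compared over 14 libraries after their values were seen, 0 passed after adjustment. Cd68 and Msr1 had the smallest p, with Pearson's r = -0.80 (permutation p = 0.00316, adjusted p = 0.0758) and a Spearman rank correlation of -0.78 (permutation p = 0.00534, adjusted p = 0.15), and r was -0.66 without the 2 libraries farthest from the median of Cd68. Msr1 differed between the libraries numbered 1 to 4 and 5 to 7, and this pair was not compared within them. Mfge8 had a log2 fold change of -0.02 (95% interval -0.43 to 0.39), with 39.1 to 117 CPM in KO and 48.5 to 89.6 CPM in WT. The border macrophage markers (9 genes) summed to 755 to 1166 CPM in KO and 694 to 1278 CPM in WT, with Mrc1 at 308 to 675 CPM, Siglec1 at 217 to 401 CPM, Ms4a7 at 86.5 to 218 CPM and Pf4 at 14.3 to 30.1 CPM. F13a1 ran from 3.27 to 36.4 CPM over all libraries, with means of 12.7 CPM in KO and 8.82 CPM in WT. Lyve1, Cbr2, Cd163 and Cd209f were at 1.96 CPM or less.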
